A study of Mus musculus with 4 samples.

Results

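The genes described here encode 10 proteins that coat lipid droplets, join them or build them in adipocytes: the perilipins Plin1, Plin2, Plin3, Plin4 and Plin5, the CIDE proteins Cidea and Cidec, and Fitm2, Bscl2 and Hilpda. They were taken by symbol from a table of 55487 genes, each symbol was found on 1 row, and all 10 were among the 22485 genes with enough counts to be tested. Their RNA was measured in whole mammary fat pad (MFP), a subcutaneous fat depot that surrounds the mammary ducts, by sequencing total RNA after removal of ribosomal RNA. The samples came from c57bl/6j females, 2 of them young (8 weeks old) and 2 aged (14 months old), each a labelled biological replicate, with no treatment or transgene named at either age. The methods of the study name strain J for its animals in one place and the C57BL/6NCrl substrain for injected mice in another. The study injected melanoma cells into this fat pad in young and aged hosts, and the comparison asks how the tissue itself differs with age.

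A lipid droplet is a core of triglyceride and sterol esters under a single layer of phospholipid, and proteins on that layer decide when lipases reach the core. In white adipocytes nearly all lipid sits in 1 large droplet, which Plin1 shields from the lipases Pnpla2 and Lipe until adrenergic signals arrive, and which Cidec enlarges by moving lipid from smaller droplets into bigger ones. Droplets form at the endoplasmic reticulum, where Bscl2 (seipin) and Fitm2 act, while Plin2 and Plin3 coat droplets in most cell types and Hilpda restrains Pnpla2.

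Adipocyte transcripts were abundant at both ages. Values are given as CPM (counts scaled to a common library total), with library sizes scaled by the TMM method of edgeR. Library totals ran from 68803304 to 98402403 counts, so that 3 counts, taken as the floor of detection, correspond to 0.0337 to 0.0407 CPM, and this floor covers counting error only. In a list of 10 adipocyte markers that holds none of the 10 genes, 9 had both aged libraries above both young ones, as Lep (leptin, log2 fold change 1.20) and Adipoq (adiponectin, 1.00) did, and the median log2 fold change was 0.51. Over all genes tested, 23.3% had both aged libraries above both young ones and 22.8% had them below. The summed level of the 10 adipocyte markers ran from 7462 to 11370 CPM. None of them was called by edgeR, while DESeq2 called Lep (adjusted p = 0.016). The skeletal muscle markers moved with age too: 11 of 12 had both aged libraries above both young ones, and their summed level was 43610 and 69020 CPM in the aged libraries against 11160 and 15420 CPM in the young libraries. DESeq2 called 9 of the 12, all higher, beside 2.49% of the 34805 genes it tested. EdgeR called 0 of the 12 muscle markers, with 10 at an unadjusted p under 0.05. Their part in the values below was not tested. Whole tissue was lysed, so a different number of cells of a type and a different amount of RNA per cell cannot be told apart.

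The sequences just upstream of 4 of the genes are shown because, as the values below give, Plin1, Cidec and Plin4 departed from the other libraries in aged replicate 1 and Plin2 in aged replicate 2. RefSeq windows on GRCm38.p6 were used for 9 of the 10 genes, and none was used for Cidea. The printed sequences were read from these windows and kept to bases outside every exon of GENCODE M21 and before the RefSeq start. Each is the strand of the gene from 5′ to 3′, and capitals mark AGGTCA, the nuclear receptor core site that PPARG binds in pairs, and CCAAT, a common promoter box, on either strand. The stretches are chr7:79732904-79733026 (minus strand) for Plin1, chr6:113435761-113436010 (minus strand) for Cidec, chr17:56109804-56110032 (minus strand) for Plin4 and chr4:86670061-86670309 (minus strand) for Plin2.
Plin1: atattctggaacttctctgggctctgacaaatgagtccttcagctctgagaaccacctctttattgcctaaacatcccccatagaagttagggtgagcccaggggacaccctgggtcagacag
Cidec: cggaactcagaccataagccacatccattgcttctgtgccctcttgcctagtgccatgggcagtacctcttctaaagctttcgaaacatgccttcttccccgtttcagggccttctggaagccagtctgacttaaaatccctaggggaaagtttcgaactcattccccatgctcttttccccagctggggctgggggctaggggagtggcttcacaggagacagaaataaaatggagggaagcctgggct
Plin4: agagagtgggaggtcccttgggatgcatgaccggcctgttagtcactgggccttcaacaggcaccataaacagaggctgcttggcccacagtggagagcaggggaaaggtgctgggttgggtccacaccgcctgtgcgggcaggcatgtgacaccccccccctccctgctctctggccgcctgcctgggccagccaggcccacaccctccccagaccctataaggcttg
Plin2: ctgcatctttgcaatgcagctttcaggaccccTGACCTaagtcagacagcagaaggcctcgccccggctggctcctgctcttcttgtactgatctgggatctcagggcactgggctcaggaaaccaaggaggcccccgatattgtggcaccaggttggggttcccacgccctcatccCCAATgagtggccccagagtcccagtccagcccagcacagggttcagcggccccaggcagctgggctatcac

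Motifs were searched on both strands of the whole 300-base windows. The 9 genes have 14 windows, since some have several. AGGTCA was found in 4 of the 14 (those of Bscl2, Plin2 and Plin5) and in 16.3% of all 32851 windows. CCAAT was found in 5 of the 14 (of Bscl2, Plin2, Plin3, Plin4 and Plin5) and in 37.4% of all windows, and ACGTG, the core of the hypoxia response element, in 2 of the 14 (of Hilpda and Plin2) and in 19.6% of all windows. The paired site AGGTCANAGGTCA (0 of the 14, 0.0396% of all windows, overlapping AGGTCA by design) and TATAAA (0 of the 14, 13.6% of all windows) were absent from these windows. The CCAAT of Plin4 and both ACGTG matches lie outside the printed stretches.

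Between the ages, 8 of the 10 genes had a higher level in aged MFP, where 47% of all genes did, and 2 had a lower level, where 53% did. No member reached an adjusted p of 0.05. Each gene was tested with edgeR on all 22485 genes, and p-values were adjusted over all of them. That test called 0% of all genes higher and 0% lower, and at an unadjusted p under 0.05 it counted 7.24% of all genes higher and 3.31% lower, but 0 of the 10 genes. DESeq2 called 710 genes higher and 155 lower, together 2.49% of the 34805 genes it tested, with 0 of the 10 among them. That total includes genes, such as Csn2, that DESeq2 left without an adjusted p, so the share among genes it could call is larger. The median log2 fold change of the 10 genes was 0.34, beside -0.04 over all genes tested, and fell to 0.089 without aged replicate 1 and to 0.15 with total counts only. Both aged libraries lay above both young ones for 6 of the 10 genes, where 23.3% of all genes did so, and below for 1, where 22.8% of all genes did so. These counts hold for TMM-scaled CPM. Per length of transcript (TPM, defined below) the ages overlapped for Plin1, Cidec and Cidea. Aged replicate 2 was below young replicate 2 for Plin1 (676.5 against 791.6 TPM) and Cidec (900 against 1063 TPM). Exact permutation of 4 libraries, 2 of each age, cannot give a two-sided p below 0.333 for any gene.

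**Figure D1:**
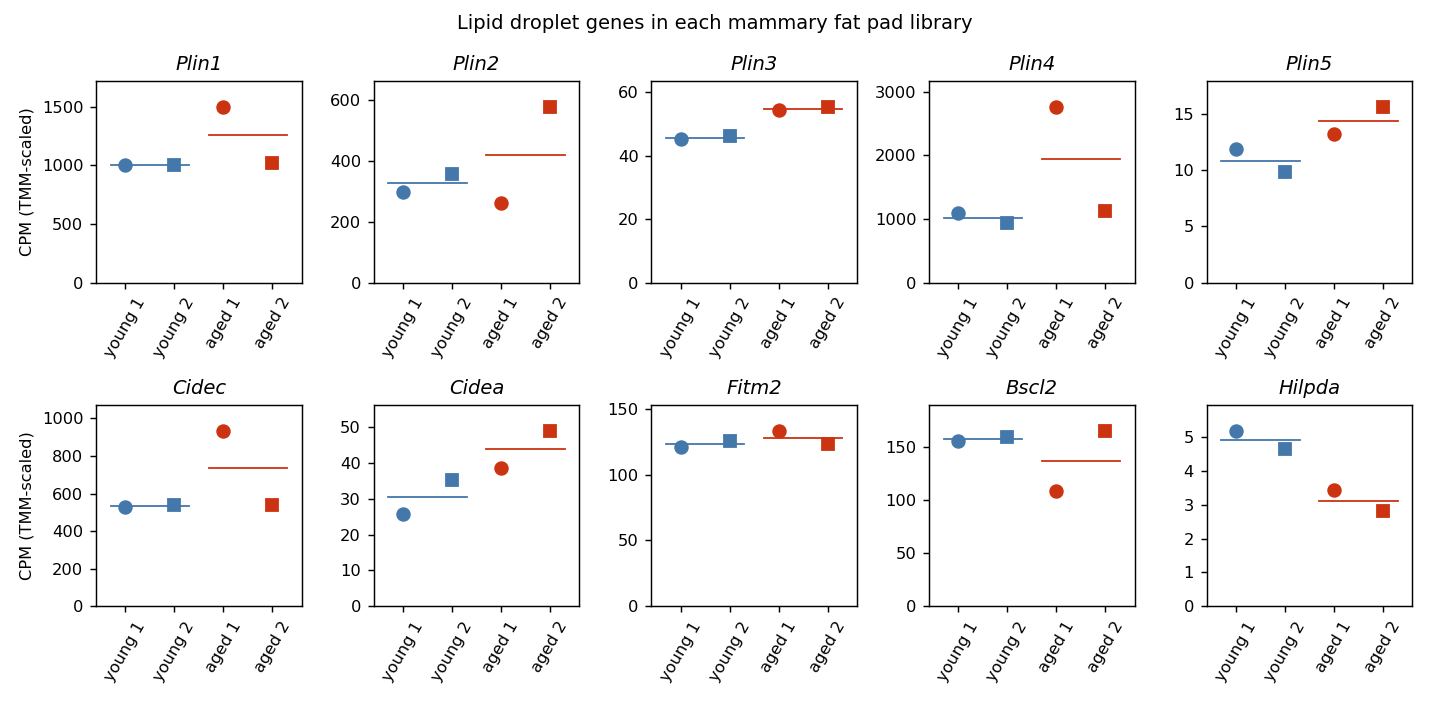
Level of each of the 10 genes (y axis, CPM on TMM-scaled library sizes, each panel from 0) in the 4 libraries (x axis), with blue for young and red for aged, circles for replicate 1, squares for replicate 2 and a line at the mean of each age. Plin1, Plin4 and Cidec are highest in aged replicate 1, with aged replicate 2 near the young libraries, and Plin2 is highest in aged replicate 2. The ages do not overlap for Plin3, Plin5, Cidea and Hilpda, nor for Plin1, Plin4 and Cidec. Plin3 has little spread within each age.

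The order of the genes was read per length of transcript, as TPM (counts per kilobase of the union of a gene's exons, scaled to the same total in each library), in which levels of different genes can be compared within a library. In young MFP Cidec stood first at 972 ± 128 TPM (SD, n = 2), followed by Plin1 at 730 ± 86.5 and Plin4 at 586 ± 1.74 TPM (SD, n = 2 each). Plin2 came next at 318.5 ± 76.2 TPM (SD, n = 2). Fitm2, Cidea and Bscl2 lay close together at 105 ± 15.02, 93.3 ± 31.0 and 90.2 ± 12.0 TPM (SD, n = 2 each). The samples of neighbours among these 3 overlapped, though Fitm2 was the highest of them in each young library, at 94.5 and 115.7 TPM. Plin3 at 40.8 ± 5.45, Plin5 at 17.4 ± 0.326 and Hilpda at 15.01 ± 0.598 TPM (SD, n = 2 each) closed the list. Cidec, Plin1 and Plin4 thus lay above 99.4% of the genes tested, and Hilpda above 59.5%.

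In aged MFP the mean of Plin4 passed that of Plin1, with overlapping samples. Plin4 was above Plin1 in aged replicate 1 (1527 against 1031 TPM) and below it in aged replicate 2 (598 against 676.5 TPM). Cidea passed Fitm2, with samples that overlapped in young but not in aged MFP. The other genes kept their places. Cidec was at 1255 ± 502, Plin4 at 1062 ± 657 and Plin1 at 854 ± 250.5 TPM (SD, n = 2 each). The samples of neighbours among these 3 overlapped, though Cidec was the highest of them in each aged library, at 1610 and 900 TPM. Plin2 followed at 372 ± 190 TPM, then Cidea at 123 ± 17.4 and Fitm2 at 102 ± 8.35 TPM (SD, n = 2 each). Bscl2 at 72.5 ± 19.3, Plin3 at 45.5 ± 0.657, Plin5 at 21.7 ± 2.01 and Hilpda at 8.94 ± 1.53 TPM (SD, n = 2 each) came last, in the same order as in young MFP.

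The main coat protein of the white adipocyte droplet, Plin1 (ENSMUSG00000030546, chromosome 7 of GRCm38, 79720218 to 79732903, minus strand), was at 1496 CPM in aged replicate 1 but 1019 CPM in aged replicate 2, and at 1002 and 1007.5 CPM in the young replicates. The young libraries and aged replicate 2 lay within a few percent of each other, and aged replicate 1 stood apart above them. The log2 fold change of aged against young MFP came to 0.32 (standard error, SE, 0.28, edgeR adjusted p = 0.642). Without aged replicate 1 it was 0.002, so the difference rests on that library.

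Plin4 (ENSMUSG00000002831, chromosome 17, 56100591 to 56109803, minus strand), a perilipin of white fat that coats small and newly formed droplets, had the largest log2 fold change of the 10 genes. It was at 2753 CPM in aged replicate 1 but 1119 CPM in aged replicate 2, against 1089 and 929 CPM in young replicates 1 and 2. Both aged libraries were higher, aged replicate 2 by little. The log2 fold change was 0.94 (SE 0.51, edgeR adjusted p = 0.538), a fold of 1.92, and it was 0.13 without aged replicate 1. Exons of Hdgfl2 on the other strand share 17 bases with those of Plin4.

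Cidec (ENSMUSG00000030278, chromosome 6, 113424634 to 113435760, minus strand), which drives the growth of the large droplet, followed the same libraries. It was at 933 CPM in aged replicate 1 but 541 CPM in aged replicate 2, and at 527 and 540 CPM in the young replicates. Aged replicate 2 again lay level with the young libraries. The log2 fold change was 0.47 (SE 0.32, edgeR adjusted p = 0.582), and 0.003 without aged replicate 1.

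The relative of Cidec that is typical of brown and beige fat, Cidea (ENSMUSG00000024526, chromosome 18, 67343604 to 67367785, plus strand), was at 38.6 and 48.9 CPM in aged replicates 1 and 2 and at 25.6 and 35.2 CPM in young replicates 1 and 2. The ages did not overlap in CPM, and the gap between the nearest libraries was smaller than the gap within either age. In TPM they did overlap, with aged replicate 1 at 110.9 and young replicate 2 at 115.2. The log2 fold change was 0.53 (SE 0.24, edgeR adjusted p = 0.512), 0.32 without young replicate 1 and 0.77 without young replicate 2. In the brown and beige marker list 4 of 8 genes had both aged libraries above both young ones and 2 had them below. Over all genes these shares were 23.3% and 22.8%. The 4 that lay above include the 2 with the largest changes, Elovl3 (a fatty acid elongase, log2 fold change 1.95) and Cox8b (a cytochrome oxidase subunit, 0.88). DESeq2 called 2 of the 8, beside 2.49% of all genes it tested. Both were higher, Cox8b (DESeq2 adjusted p = 0.0096) and Ppargc1a (log2 fold change 0.73, DESeq2 adjusted p = 0.040). EdgeR called 0 of the 8. The 2 that lay below were Ucp1, the uncoupling protein that defines brown fat, with 13.1 and 10.1 CPM in the aged libraries against 21.8 and 18.1 CPM in the young libraries, and Dio2, the deiodinase that activates thyroid hormone, with 1.49 and 1.54 CPM against 2.01 and 2.70 CPM. Per length, Cidea had 4.34 and 7.12 times the level of Ucp1 in the aged libraries against 1.73 and 2.86 times in the young libraries.

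Plin2 (ENSMUSG00000028494, chromosome 4, 86648386 to 86670060, minus strand), the perilipin of most non-adipose cells and of milk fat globules, showed the reverse of Plin1 among the aged libraries. It was at 260 CPM in aged replicate 1 but 576 CPM in aged replicate 2, with the young libraries between them at 299 and 358 CPM. The ages overlapped, and the log2 fold change of 0.35 (SE 0.43, edgeR adjusted p = 0.742) became -0.34 without aged replicate 2 and 0.79 without aged replicate 1. The macrophage markers were higher in aged replicate 2 than in aged replicate 1 in 6 of 6 genes, by a median of 0.18 on the log2 scale, and the muscle markers in 9 of 12, by a median of 0.78. The part of either cell type in the Plin2 values was not tested.

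Plin3 (ENSMUSG00000024197, chromosome 17, 56277476 to 56292873, minus strand), which moves from the cytosol onto new droplets in most cell types, had little spread within each age in TMM-scaled CPM. It was at 54.3 and 55.2 CPM in the aged libraries, against 45.1 and 46.3 CPM in the young libraries, and the ages were clear of each other. The log2 fold change was 0.26 (SE 0.12, edgeR adjusted p = 0.521), and it lay between 0.24 and 0.28 with any library left out.

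Plin5 (ENSMUSG00000011305, chromosome 17, 56111601 to 56117596, minus strand) ties droplets to mitochondria in oxidative tissues such as heart, muscle and brown fat. It was at 13.2 and 15.6 CPM in the aged libraries, against 11.9 and 9.82 CPM in the young libraries. The ages did not overlap, with a log2 fold change of 0.41 (SE 0.22, edgeR adjusted p = 0.536), and the skeletal muscle markers described above were higher in the same libraries. On chromosome 17 the genes Plin4 and Plin5 are neighbours in the same orientation, 1797 bases apart, and Plin3 lies 160 kilobases farther on. Plin4 and Plin5 share that stretch and differ widely in level, as the TPM values give.

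**Figure D2:**
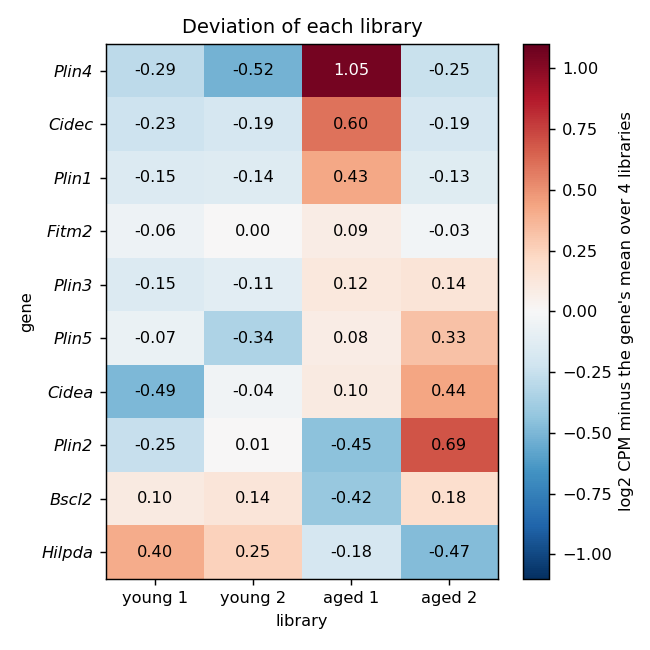
Deviation of each library (columns) from the mean over the 4 libraries for each gene (rows), in log2 CPM with a prior count of 2, red above and blue below the mean. Plin4, Cidec and Plin1 deviate by 1.05, 0.60 and 0.43 in aged replicate 1, where Plin2 and Bscl2 are below their means, and Plin2 deviates by 0.695 in aged replicate 2.

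The genes of droplet assembly, Fitm2 and Bscl2, overlapped between the ages. Fitm2 (ENSMUSG00000048486, chromosome 2, 163466379 to 163472629, minus strand), a membrane protein of the endoplasmic reticulum needed for droplets to bud, was at 133 and 123 CPM in the aged libraries, against 121 and 126 CPM in the young libraries. The ages overlapped, with a log2 fold change of 0.06 (SE 0.13, edgeR adjusted p = 0.863). An antisense gene, 2310001K24Rik, shares 227 bases of exon with Fitm2, and whether the counting used the strand is not given in the sources used here.

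Bscl2 (ENSMUSG00000071657, chromosome 19, 8837467 to 8848683, plus strand) encodes seipin, whose loss in people leaves almost no fat tissue. It was at 108 CPM in aged replicate 1 but 165 CPM in aged replicate 2, and at 155 and 159 CPM in the young libraries. Only aged replicate 1 was low, and the log2 fold change of -0.20 (SE 0.24, edgeR adjusted p = 0.73) became 0.05 without it. Gng3 on the other strand shares 398 bases of exon with Bscl2, and AC129217.1 on the same strand shares 239, so reads there could be split between genes.

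Hilpda (ENSMUSG00000043421, chromosome 6, 29272488 to 29275446, plus strand), a small protein induced by low oxygen and by fatty acids that inhibits the lipase Pnpla2, had both aged libraries below both young ones, which none of the other members had. It was at 3.45 and 2.81 CPM in the aged libraries, against 5.18 and 4.66 CPM in the young libraries, from 282 and 250 counts and from 425 and 344 counts. Every aged value was below every young value, by a log2 fold change of -0.65 (SE 0.27, edgeR adjusted p = 0.497). Leaving out any 1 library gave between -0.83 and -0.52. A list of 12 hypoxia response genes was split in direction: 7 were higher and 5 lower in aged MFP, beside 47% and 53% of all genes. The median change was 0.18 on the log2 scale. In that list 2 had both aged libraries above both young ones, beside 23.3% of all genes, and 1 had them below, beside 22.8%. The largest changes in that list were those of Bnip3, a mitophagy receptor (log2 fold change 0.84), and Ndrg1, a stress response gene (0.73). Neither passed an adjusted p of 0.05 in edgeR.

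The aged libraries lay farther apart than the young ones for Plin4, Cidec and Plin1, and also for Plin2, Bscl2, Hilpda and Fitm2. Aged replicate 1 exceeded aged replicate 2 by 1.299 for Plin4, 0.79 for Cidec and 0.55 for Plin1 on the log2 CPM scale, while young replicate 1 differed from young replicate 2 by 0.23, -0.04 and -0.01. Plin2 and Bscl2 ran the other way, at -1.15 and -0.60 between the aged libraries. For scale, the median absolute gap over all genes tested was 0.23 between the aged and 0.40 between the young libraries, and 94.7% of genes had a smaller gap between the aged libraries than Plin4. The adipocyte markers were higher in aged replicate 1 in 9 of 10 genes, by a median of 0.34 on the log2 scale, and their part in these gaps was not tested.

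Ratios within a library do not depend on how libraries are scaled. Of all perilipin transcripts, counted per length, Plin1 made up 36.0% and 36.6% in the aged libraries against 42.5% and 43.7% in the young libraries, a gap larger than the spread within either age. Plin4 took 53.4% in aged replicate 1 and 32.3% in aged replicate 2, and 37.2% and 32.4% in the young libraries. Plin2 took 8.30% and 27.4% in the aged, on either side of 16.8% and 20.5% in the young libraries. Beside the lower share of Plin1 stood a higher share of Plin4 in aged replicate 1 and of Plin2 in aged replicate 2. Plin3 and Plin5 held at most 2.46% and 1.25% in any library. Hilpda per Plin1 was 0.00972 and 0.0116 in the aged libraries against 0.0218 and 0.0195 in the young libraries, and Cidec per Plin1 ran from 1.32 to 1.56 with overlap between the ages.

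**Figure D3:**
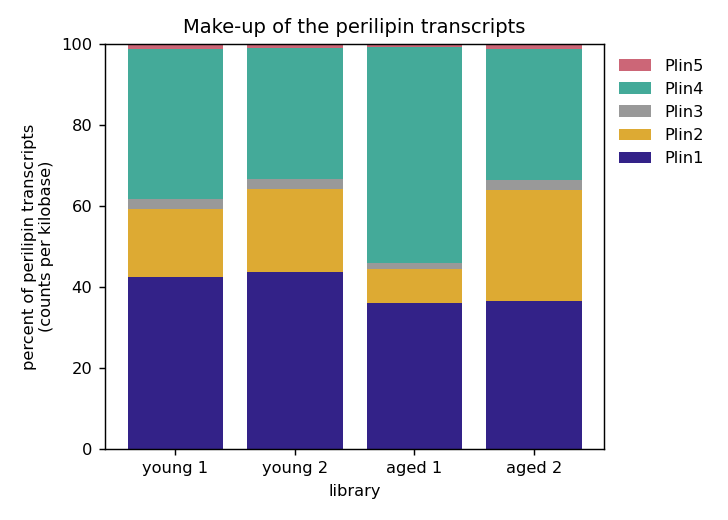
Share of each perilipin among all perilipin transcripts (y axis, percent of counts per kilobase of exon, stacked to 100) in each library (x axis). Plin1 holds 42.5% and 43.7% in the young and 36.0% and 36.6% in the aged libraries, with Plin4 wide in aged replicate 1 and Plin2 in aged replicate 2.

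The direction of most of the 10 genes turned when they were read against other adipocyte transcripts. With libraries scaled by the geometric mean of the 10 adipocyte markers, 2 of the 10 genes were higher in aged MFP, Plin4 (log2 fold change 0.35, SE 0.41) and Cidea (0.03, SE 0.33), and 8 were lower. The median of the 10 was then -0.17 and the median of all genes moved from -0.04 to -0.56. The 10 genes lay 0.37 above the median gene with TMM and 0.39 above it with the markers. That likeness comes with the method, since rescaling moves all genes nearly alike. Without aged replicate 1 they lay 0.16 above the median gene with TMM. With the markers, Hilpda was lowest at -1.19 (SE 0.36, edgeR adjusted p = 0.217), then Bscl2 at -0.69 (SE 0.34) and Fitm2 at -0.47 (SE 0.22). These 3, Plin1 and Plin3 had both aged libraries below both young ones on this scale, 5 of the 10, where 57.8% of all genes did so, and 0 of the 10 had them above, where 6.08% did so. No gene of the 10 passed an adjusted p of 0.05 on either scale. Against Adipoq alone, Plin1 stood per length at 0.390 and 0.389 in the aged libraries against 0.561 and 0.696 in the young libraries, while against Fabp4, a fatty acid binding protein, it stood at 0.632 and 0.503 in the aged libraries, on either side of 0.519 and 0.530 in the young libraries.

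**Figure D4:**
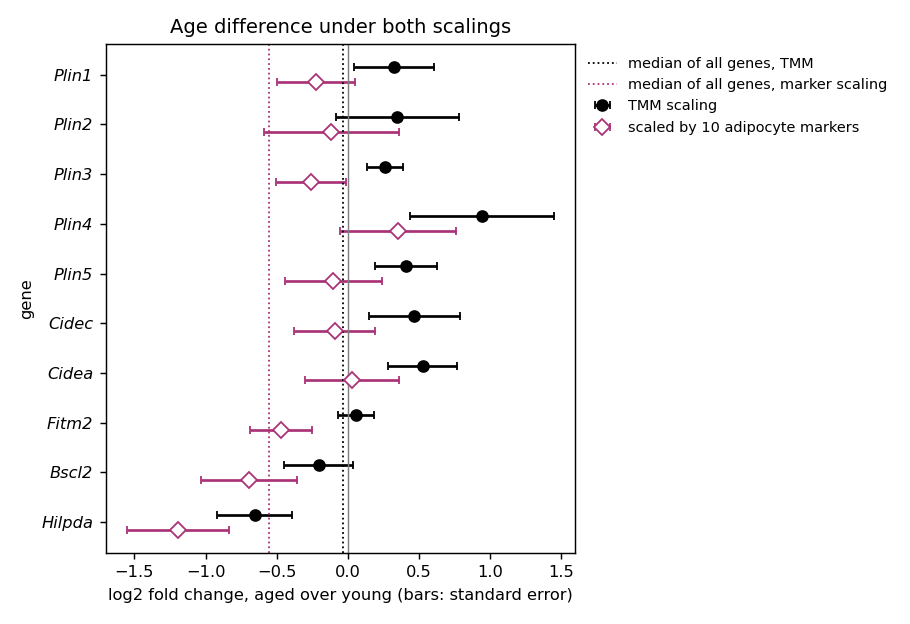
Log2 fold change of each gene in aged over young MFP (x axis, bars for the standard error from edgeR) with TMM scaling (black circles) and with libraries scaled by 10 adipocyte markers (open diamonds). Dotted lines mark the median of all genes on each scale, -0.04 and -0.56, and 8 genes lie above 0 with TMM but 2 with the markers.

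Among 28 other genes for proteins of the droplet surface and of droplet turnover, 16 were higher and 12 lower in aged MFP. Both aged libraries lay above both young ones for 11, beside 23.3% of all genes, and below for 6, beside 22.8%, and the median log2 fold change was 0.13. None passed an adjusted p of 0.05 in edgeR, and 2 were higher and 1 lower at an unadjusted p under 0.05. DESeq2 called 1, which was higher, beside 2.49% of all genes it tested. That gene was Fitm1 (DESeq2 adjusted p = 1.47e-06), the relative of Fitm2 found mainly in skeletal muscle. Fitm1 was at 13.0 and 17.2 CPM in the aged libraries, against 3.11 and 4.34 CPM in the young libraries, a log2 fold change of 2.02 (SE 0.30, edgeR adjusted p = 0.36). The muscle markers had a median log2 fold change of 2.12. The largest decrease was that of Clstn3 (log2 fold change -0.75), whose locus also gives an adipocyte protein of the contact between endoplasmic reticulum and droplet, at 26.3 and 37.4 CPM in the aged libraries against 53.8 and 53.6 CPM in the young libraries.

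Genes whose levels ran most like those of a member were sought among the 6081 genes with a mean log2 CPM of at least 5, by the distance between log2 CPM values centred on each gene's mean over the 4 libraries. Closest to Plin1 were Myo1c (distance 0.045), Ivd (0.046) and Zfp703 (0.077). Closest to Plin2 were Tecr (0.056), Lactb2 (0.102) and Gpi1 (0.14), and among the closest to Cidea were Dixdc1 (0.04) and Stk40 (0.081). With only 4 libraries, such likeness describes these libraries and nothing more.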

How the data were processed

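Total RNA of whole mammary fat pad from 2 aged and 2 young mice was sequenced from directional libraries depleted of ribosomal RNA. The deposited values are the raw gene counts of each sample, which the authors neither normalized nor filtered. The submitters' processing notes list featureCounts, R 3.6.1 and the builds GRCm38 and hg38 without roles; the aligner, annotation and strand setting are not given in the sources used here.

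Counts were tested with edgeR 4.0.16 in R 4.3.3: filterByExpr, TMM scaling, glmQLFit and glmQLFTest with age as the only term, and Benjamini-Hochberg adjustment over 22485 genes at 0.05. The standard error was the log2 fold change divided by the square root of F. DESeq2 1.42.0, which the study's methods name, was an alternative, beside other scalings, filters, a block by replicate number and leaving out each library. Log2 CPM used a prior count of 2. Coordinates and exon lengths come from GENCODE M21 (GRCm38). The code was tested on simulated counts.

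The members and gene lists were chosen with earlier results of these data known. Named were all 10 members, the 2 largest changes of each list, and the 3 genes most like Plin1, Plin2 and Cidea, of which 1 is not reported here. Ucp1, Dio2, Ppargc1a, Fabp4, Csn1s1 and Col3a1 were named after their values were seen.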

Additional observations from a re-analysis of the deposited data

How the results depend on the processing

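None of the 10 genes was called by edgeR or DESeq2 under any alternative, including an adjusted p of 0.1. DESeq2 called 865 genes in all where edgeR called 0 and had 2371 at an unadjusted p under 0.05. The median log2 fold change of the 10 genes was 0.15 with total counts only, which moved the median of all genes to -0.22, and -0.17 with scaling by adipocyte markers. On that last scale Plin1 (-0.23), Plin2 (-0.12), Plin3 (-0.26), Plin5 (-0.10), Cidec (-0.093) and Fitm2 (-0.47) turned negative, and Fitm2 was also -0.12 with total counts only. Dividing by markers that are higher in aged MFP lowers every gene by construction. With each library left out in turn, the median ranged from 0.089 to 0.304, lowest without aged replicate 1, and Plin2 ranged from -0.34 to 0.79, Fitm2 from -0.02 to 0.11 and Bscl2 from -0.542 to 0.048. These fits leave an age with a lone library, which is assumed to vary like the other age. The numbers of the replicates did not pair the samples: over 22485 genes, deviations of same-numbered libraries from their age mean correlated at -0.48. A replicate block in the edgeR fit gave a median of 0.28 and 0 calls, with 1346 genes at an unadjusted p under 0.05. A crossed replicate block, chosen after seeing the data, gave 0 calls and 2494 such genes. RLE and upper quartile scaling, both other filters and leaving out mitochondrially encoded genes, with or without the muscle markers, kept the direction of all 10 genes.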

Other observations

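The remaining marker lists were measured in the same libraries. Over all genes tested, 23.3% had both aged libraries above both young ones and 22.8% below, and DESeq2 called 2.49% of the genes it tested. Of 9 mammary epithelium genes tested, 2 had both aged libraries above both young ones and 3 below. The latter were the milk genes Lalba, with 6 and 6 counts in aged MFP against 79 and 247 counts in young MFP, Csn1s1, with 3 and 3 against 26 and 56 counts, and Csn2, with 0 counts in both aged libraries against 12 and 17 counts. Wap had 0 counts in every library. DESeq2 called 2 of the 9, both lower.

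Of 5 fibroblast and progenitor markers 1 was higher in both aged libraries and 3 lower, among them Dpp4 (log2 fold change -1.79) and Col1a1 (-1.60), a collagen chain. Of 6 macrophage markers 3 were higher in both aged libraries, among them Mrc1 (0.81), while Lyz2 (-1.12) was at 374 CPM in young replicate 1 and between 45.9 and 119 CPM in the other libraries. Of 5 sebocyte and skin markers 4 were higher in both aged libraries, all at low levels, with Krt1 (1.42) and Scd3 (0.90) first. The 3 endothelial markers overlapped between the ages, with Cdh5 at 0.37 and Pecam1 at -0.07. In the skeletal muscle list the largest changes were those of the myosin heavy chains Myh2 (8.04) and Myh7 (5.11), which stood at 578 and 24.3 CPM in aged replicate 1 and at 2.16 and 0.27 CPM in aged replicate 2. None of these genes passed an adjusted p of 0.05 in edgeR, while DESeq2 called 9 of the 12 muscle markers, Myh2 (adjusted p = 0.0184) among them, and 2 fibroblast markers, Col1a1 (1.99e-05) and Col3a1 (0.0136), both lower.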
